A study of Homo sapiens with 6 samples.

Results

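Genes for extracellular proteases and their inhibitors were followed in LS180, a cell line established from a human colorectal adenocarcinoma, after knockdown of CTNNB1, MYC or the long non-coding RNA MYU. The members were taken by symbol: the tissue kallikreins (KLK), the matrix metalloproteinases (MMP), the membrane-bound and secreted ADAM and ADAMTS proteases, the serine protease families PRSS and TMPRSS, the serpins, the SPINK and SPINT inhibitors, SLPI, PI3, the tissue inhibitors of metalloproteinases (TIMP), the cystatins (CST) and the WAP four-disulfide core genes (WFDC). They numbered 94 of the 14812 genes measured and were read by 99 of 15835 named probe sets. Of the 94, 84 were protein-coding, 9 were transcribed pseudogenes and 1 was a long non-coding RNA. There were 23 ADAM, 20 MMP and 15 kallikrein genes, 4 TIMP genes, 12 WFDC genes and SLPI. The cystatin pattern matched 16 genes, of which CSTPP1 encodes a centriole protein and no cystatin. The antisense RNA ADAMTS9-AS2 also matched by name only. No probe set was listed with a TMPRSS, serpin, SPINK, SPINT1, SPINT2 or PI3 symbol. PRSS and ADAMTS were represented only by the pseudogenes PRSS59P and ADAMTS7P1 and that antisense RNA. These families were therefore not analysed as families, but the genes that were listed are counted among the 94 members.

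The 6 Affymetrix arrays formed 3 pairs. Cells given an siRNA against CTNNB1 (beta-catenin), MYC or MYU each had 1 array (the treatment tag of the first names CTNNB2, its title and source name CTNNB1), and each had 1 array of cells given control siRNA, named for that knockdown. Controls named for the CTNNB1 and the MYC knockdown share a number in their titles and may be the same cells, so values of these pairs are set side by side and may not be independent. No time after transfection and no second siRNA sequence is given in the labels. The deposited log2 values are centred within each pair, so that a gene's value in the control array mirrors its value in the knockdown array. Levels are therefore not available, the colonic identity of the line could not be checked from marker levels, and each gene has 1 difference a pair, knockdown minus its own control. Since neither side of a pair has a replicate, p-values cannot be given, and "higher" and "lower" describe these arrays only. A difference of 1 is 2-fold, and 1.5-fold was the second threshold. The central 95% of all genes lay between -1.26 and 1.06 for CTNNB1 siRNA, between -0.66 and 0.56 for MYC siRNA and between -0.46 and 0.40 for MYU siRNA. MYC itself was lower in the CTNNB1 and MYC pairs, by 5.21-fold (-2.38) and 2.27-fold (-1.18), and had a difference of 0.04 in the MYU pair. VPS9D1-AS1, the symbol under which MYU is listed, had differences of -0.53, -0.24 and -0.50. In its own knockdown pair it was 1.41-fold lower, short of 1.5-fold, and in the CTNNB1 pair it was 1.44-fold lower. CTNNB1 was not analysed here, as no probe set is listed with it.

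Extracellular proteases cut matrix, growth factors, receptors and each other, and most are made as inactive precursors. Kallikreins are secreted serine proteases, whereas MMPs and ADAMs are zinc-dependent and are either secreted or held at the membrane. TIMPs bind MMPs and some ADAMs, WAP-domain proteins such as SLPI block serine proteases of the elastase type, and cystatins block cysteine proteases of the cathepsin type. In the intestine these enzymes take part in matrix turnover, in shedding of growth factors from the epithelial surface and in defence at the mucosa.

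Of the 94 members, 8 differed by at least 2-fold in any pair: SLPI, TIMP1, TIMP2, KLK7, KLK10, KLK11, MMP14 and MMP28. That is 8.51% of members, beside 7.39% of all genes. The promoters of 5 of them were present in the RefSeq table (build GRCh38.p14) and are shown because genes of the same chromosomal cluster or the same enzyme and inhibitor system lie among them. Each runs 5′ to 3′ on the gene's own strand, from 250 bases before to 50 after the first listed start. Capitals mark GC boxes, GGGCGG on either strand, the letters to which Sp1-type factors bind. The positions are chr19:50983868-50984167 (minus strand) for KLK7, chr19:51019812-51020111 (minus) for KLK10, chr19:51027597-51027896 (minus) for KLK11, chr14:22836335-22836634 (plus) for MMP14 and chrX:47582186-47582485 (plus) for TIMP1.
KLK7: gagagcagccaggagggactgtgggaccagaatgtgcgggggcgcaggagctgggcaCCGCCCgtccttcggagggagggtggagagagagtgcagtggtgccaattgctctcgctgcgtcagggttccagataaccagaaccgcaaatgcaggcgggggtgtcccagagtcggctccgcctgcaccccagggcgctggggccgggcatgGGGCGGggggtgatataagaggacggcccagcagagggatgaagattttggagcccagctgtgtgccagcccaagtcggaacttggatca
KLK10: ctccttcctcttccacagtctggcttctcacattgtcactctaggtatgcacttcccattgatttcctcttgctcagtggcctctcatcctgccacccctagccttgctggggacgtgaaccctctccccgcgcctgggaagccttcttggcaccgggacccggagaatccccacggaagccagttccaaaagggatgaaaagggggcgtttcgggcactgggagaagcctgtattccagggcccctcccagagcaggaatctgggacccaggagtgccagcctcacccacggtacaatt
KLK11: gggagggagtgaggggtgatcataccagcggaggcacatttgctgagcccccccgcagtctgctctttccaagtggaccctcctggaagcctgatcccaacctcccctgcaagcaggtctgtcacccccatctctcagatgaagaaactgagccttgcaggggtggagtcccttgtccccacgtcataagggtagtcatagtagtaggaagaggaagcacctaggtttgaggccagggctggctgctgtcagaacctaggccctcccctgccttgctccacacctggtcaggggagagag
MMP14: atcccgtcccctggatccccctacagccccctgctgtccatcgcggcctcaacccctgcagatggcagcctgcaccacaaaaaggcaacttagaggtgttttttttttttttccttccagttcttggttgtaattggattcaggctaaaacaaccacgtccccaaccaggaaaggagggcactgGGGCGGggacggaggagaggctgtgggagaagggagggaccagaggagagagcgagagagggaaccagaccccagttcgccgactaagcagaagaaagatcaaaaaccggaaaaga
TIMP1: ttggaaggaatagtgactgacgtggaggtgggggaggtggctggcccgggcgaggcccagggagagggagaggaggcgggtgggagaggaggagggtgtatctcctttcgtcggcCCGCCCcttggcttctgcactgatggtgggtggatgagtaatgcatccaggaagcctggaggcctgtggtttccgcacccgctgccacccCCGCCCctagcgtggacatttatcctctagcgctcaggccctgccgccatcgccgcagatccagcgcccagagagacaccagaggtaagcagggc

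SLPI, TIMP2 and MMP28 are not shown. The windows shown hold 2 GC boxes for KLK7 and TIMP1, 1 for MMP14 and 0 for KLK10 and KLK11. The number depends on the start chosen: a second listed window of KLK11 holds 3, the other windows of KLK7 hold 2 and 1, and the second of KLK10 holds 0. GC boxes occurred in 58.2% of 14869 promoters of measured genes and in 32 of 62 promoters of 52 members. Both strands were also searched for the E-box CACGTG, which MYC binds, for TCAAAG, the core to which the TCF/LEF partners of beta-catenin bind, for the AP-1 site TGANTCA and for the TATA box TATAAA. None of the 4 was found in the 9 promoters listed for the 5 genes. Over the promoters of all measured genes the shares were 8.55% for CACGTG, 10.97% for TCAAAG, 6.29% for TGANTCA and 8.57% for TATAAA. Among members, CACGTG occurred in promoters of ADAM10, ADAM30, MMP21 and ADAMTS9-AS2, and TCAAAG in those of MMP21, ADAM20 and CSTPP1. Of the 62 promoters of members, 2 held TGANTCA (MMP10 and MMP20) and 12 (19.4%) held TATAAA. These matches describe letters in short windows and are no evidence of binding.

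With CTNNB1 siRNA, 7 of the 94 members were at least 2-fold higher and 0 were at least 2-fold lower. Over all genes 2.80% were 2-fold higher and 4.14% were 2-fold lower, and 6.94% were 2-fold apart in either direction, against 7.45% of the members. The members' total share was thus close to that of all genes. At 1.5-fold 13 members were higher and 3 lower, against 6.44% and 9.80% of all genes, and against 16.2% in either direction. The median over members was 0.05, beside a median of 0.00 over all genes. With MYC siRNA, 1 member was 2-fold higher and 1 was 2-fold lower, against 0.412% and 0.446% of all genes, and at 1.5-fold 6 were higher and 2 lower, against 2.15% and 3.63%, and against 5.79% in either direction. With MYU siRNA 0 members were 2-fold apart, beside 0.0608% of all genes higher and 0.0945% lower, 0.155% together, and 3 were 1.5-fold higher, beside 0.668%. No member was 1.5-fold lower with MYU siRNA, where 1.21% of all genes were, with 1.88% apart in either direction. The medians were 0.02 and 0.03 in the MYC and MYU pairs. In these cultures, fewer cells making a transcript and less of it per cell cannot be told apart. The plot of differences by family shows that most members lay near 0 in every pair and that a few genes carried the differences. All genes were much the same. With CTNNB1 siRNA 78 of the 94 members were within 1.5-fold, beside 12406 of 14812 genes.

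**Figure D1:**
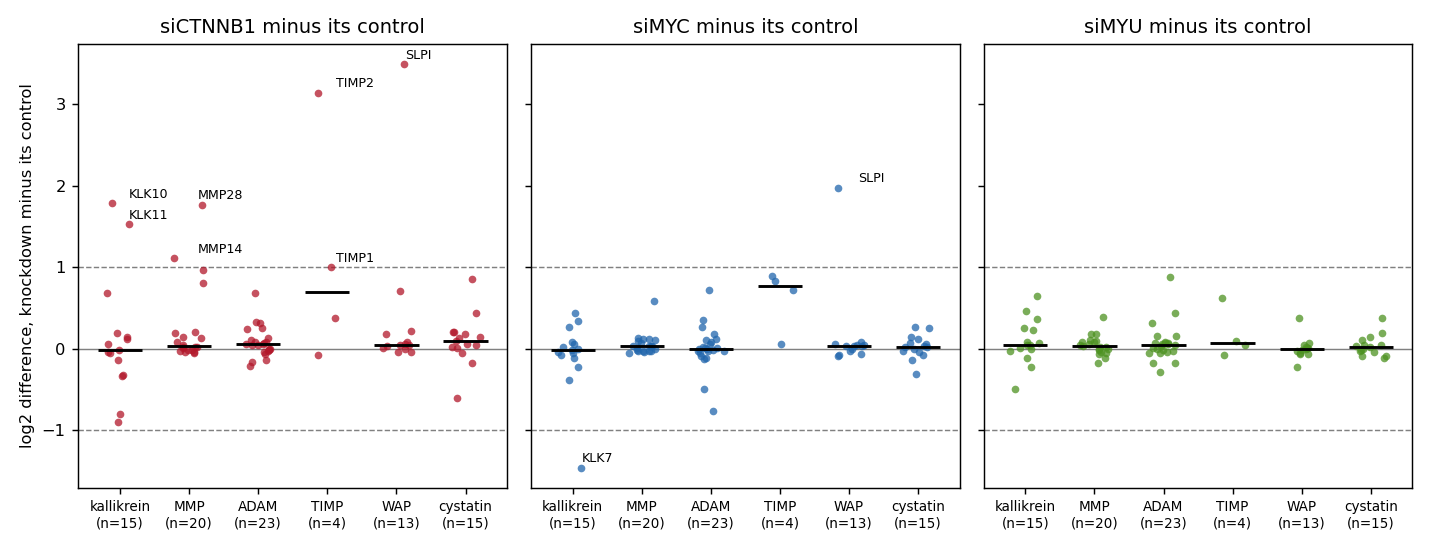
Log2 differences (vertical axis, knockdown minus its own control) of the members by family in the CTNNB1, MYC and MYU pairs, each point 1 gene, black bars the family medians, dashed lines 2-fold. SLPI and TIMP2 stand above 3 in the CTNNB1 pair, the TIMP median is 0.69 there and 0.77 in the MYC pair, and no point crosses a dashed line in the MYU pair.

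The TIMP family had the highest family median in the CTNNB1 and MYC pairs. TIMP2, which inhibits MMPs and also takes part in the activation of MMP2 at the cell surface, had a centred value of 1.57 in the CTNNB1 siRNA array, against -1.57 in its control. That is a difference of 3.14 (8.83-fold), and TIMP2 ranked 13 of 14812 genes from the top. TIMP2 was higher by 0.89 (1.86-fold) with MYC siRNA, and its difference with MYU siRNA was 0.09. It was the member just below the 2-fold line in the MYC pair. TIMP1, a broad MMP inhibitor with growth-promoting activity, was the only member at least 1.5-fold higher in all 3 pairs, with differences of 1.001 with CTNNB1, 0.83 with MYC and 0.62 with MYU siRNA. The share of all genes with that pattern was not counted. The TIMP1 value with CTNNB1 siRNA is the one just inside the 2-fold line. It became 0.99 when each array was centred on its own median. With MYU siRNA 0.533% of all genes had a higher value than TIMP1. TIMP4, a TIMP of restricted tissue range, had a difference of 0.38 with CTNNB1, of 0.71 with MYC and of -0.08 with MYU siRNA. TIMP3, which is retained in the matrix and also inhibits ADAM17, stayed near 0, with -0.08, 0.06 and 0.05. Its 2 probe sets differed in sign in the MYC pair (0.12 and -0.01) and in the MYU pair (-0.03 and 0.12). In the assembly TIMP1, TIMP3 and TIMP4 overlap the synapsin genes SYN1, SYN3 and SYN2, TIMP2 overlaps CEP295NL, and SLPI and MMP28 each overlap another annotated gene. The members ADAM9, ADAM17, KLK6, MMP1 and WFDC21P, which reached 1.5-fold in a pair, also overlap other annotated genes. Whether the probe sets separate strands is not given in the sources used here.

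SLPI, the secretory leukocyte protease inhibitor that protects mucosa from neutrophil elastase, had the largest difference of all members. Its centred value was 1.75 in the CTNNB1 siRNA array, against -1.75 in its control, and 0.99 in the MYC siRNA array, against -0.99 in its control. The differences were 3.49 (11.3-fold) with CTNNB1 siRNA, 1.98 (3.94-fold) with MYC siRNA and 0.38 (1.30-fold) with MYU siRNA. SLPI ranked 10 of 14812 genes from the top with CTNNB1 siRNA, 2 with MYC siRNA and 414 with MYU siRNA. The other WAP-domain genes did not share this. WFDC2, an epithelial secretory protein used as a tumour marker, had 0.04, -0.07 and 0.02. The pseudogene WFDC21P, which lies outside the SLPI cluster, was higher by 0.70 with CTNNB1 siRNA, and the remaining 10 WFDC genes lay between -0.04 and 0.21 in that pair, between -0.09 and 0.08 in the MYC pair and between -0.23 and 0.06 in the MYU pair. SLPI lies within a run of 16 WAP and Kunitz inhibitor genes on chromosome 20, of which 11 were measured. The run allowed up to 20 other genes between its members. SLPI is set apart in it, with 5 other genes between PI3 and SLPI and 15 between SLPI and WFDC2. It was the only one of the 11 that reached 1.5-fold in any pair, where 18.8% of all genes did. With 11 genes this count is close to that share.

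Cystatins differed less. CSTB, an inhibitor of cathepsins inside the cell, was higher by 0.86 (1.81-fold) with CTNNB1 siRNA, and had differences of 0.12 with MYC and 0.38 with MYU siRNA. CST2, a salivary cystatin, was lower by 1.52-fold (-0.60) with CTNNB1 siRNA and had -0.32 and 0.03 in the MYC and MYU pairs. CST3, the widely expressed cystatin C, had 0.43, 0.26 and 0.19. CST3 and CST2 lie in one cluster on chromosome 20, and the other measured members of that cluster stayed between -0.17 and 0.21 in the CTNNB1 pair. None of the 15 cystatin genes reached 2-fold in any pair, where 7.39% of all genes did, so the count is close to that share. Their medians were 0.09, 0.03 and 0.02.

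**Figure D2:**
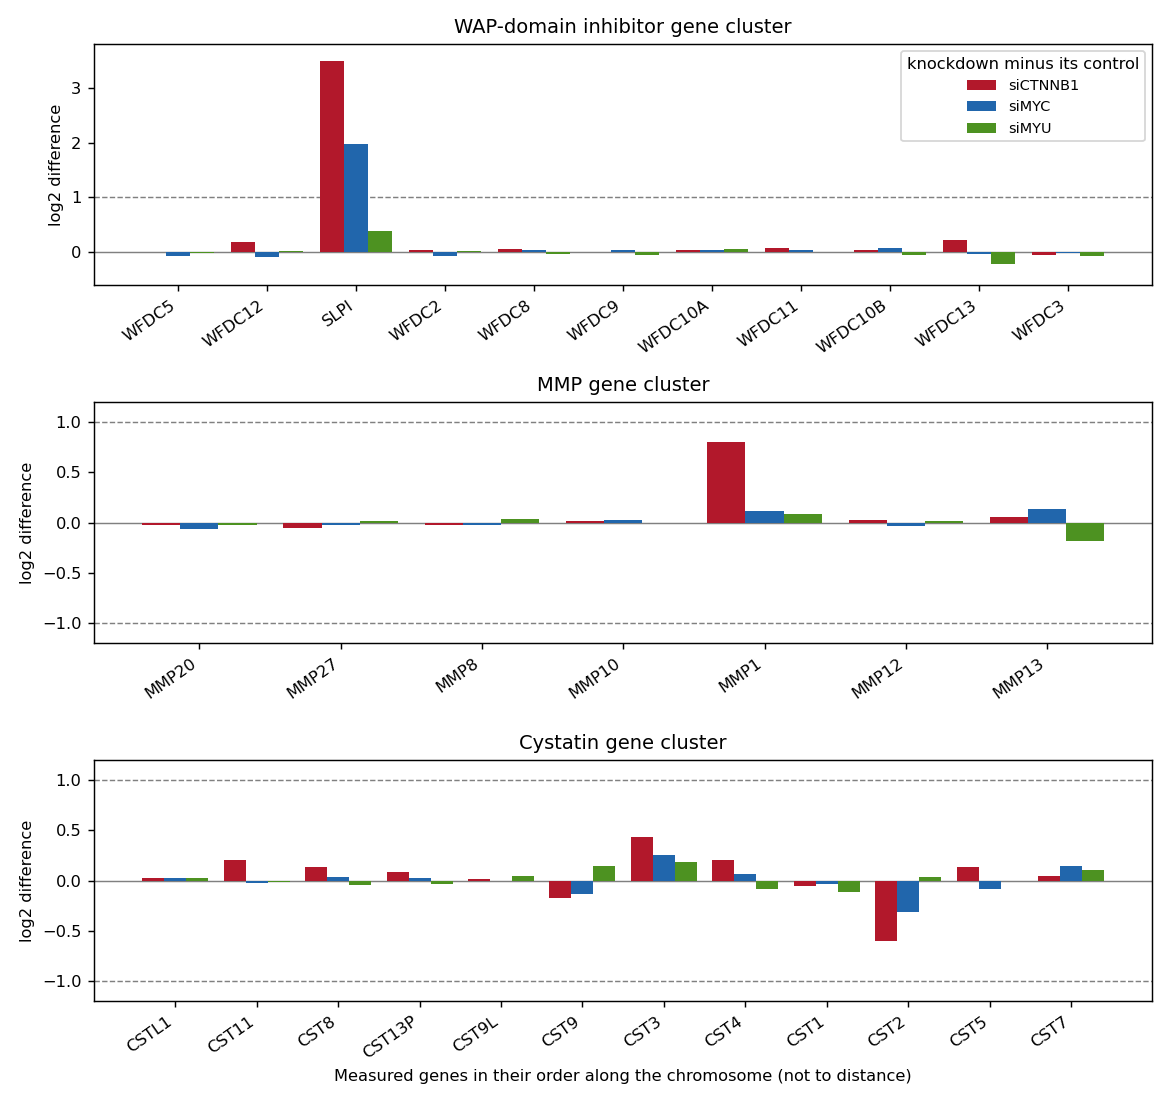
Log2 differences (vertical axes, bars from 0, knockdown minus its own control) of measured genes in 3 chromosomal clusters, in their order along the chromosome and not to distance. In the WAP-domain cluster SLPI alone departs from 0 by more than 1, in the MMP cluster MMP1 reaches 0.80 with CTNNB1 siRNA, and in the cystatin cluster CST2 reaches -0.60.

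The 15 kallikrein genes form one run on chromosome 19, all of which were measured, and separate parts of the run differed in opposite directions. With CTNNB1 siRNA KLK10, a kallikrein expressed in many epithelia, had a centred value of 0.89 in the knockdown array, against -0.89 in its control, and KLK11 had 0.76, against -0.76. Their differences were 1.78 (3.44-fold) and 1.53 (2.88-fold). KLK6 and KLK7, a few genes away on the same run, were lower in that pair, with -0.81 (1.75-fold) and -0.90 (1.87-fold). KLK8, the next gene after KLK7, had -0.32, and KLK9, which separates it from KLK10, had 0.15. KLK12, next after KLK11, had -0.33. Thus KLK6 stood beside KLK7 and KLK10 beside KLK11, with KLK8 and KLK9, both within 1.5-fold, between them.

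KLK7, a chymotrypsin-like protease known from skin shedding, had the largest decrease of any member. It was lower by 2.75-fold (-1.46) with MYC siRNA, where its centred value was -0.73 in the knockdown array, against 0.73 in its control. In that pair it ranked 9 of 14812 genes from the bottom. With MYU siRNA KLK7 was higher by 1.56-fold (0.64), and 0.439% of genes had a higher value. It was the only member at least 1.5-fold apart in all 3 pairs in differing directions. The share of all genes with such a pattern was not counted. KLK10 had 0.27 with MYC siRNA and -0.50 with MYU siRNA, the lowest value of any member in the MYU pair. KLK11 had 0.44 and 0.25 in these pairs, and KLK6 had -0.12 and 0.04. KLK1, the tissue kallikrein that releases kinins, lies at one end of the run and had 0.69 with CTNNB1, 0.34 with MYC and 0.46 with MYU siRNA. The 10 kallikreins that did not reach 1.5-fold in any pair lay between -0.33 and 0.19 with CTNNB1, between -0.38 and 0.08 with MYC and between -0.23 and 0.36 with MYU siRNA. The family medians were -0.01, -0.02 and 0.05.

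**Figure D3:**
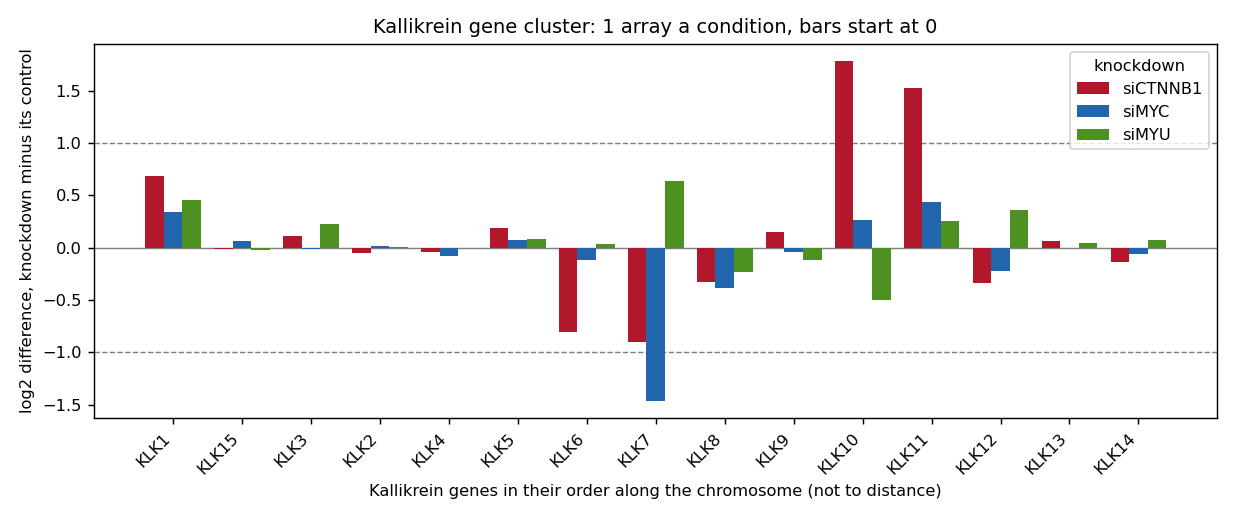
Log2 differences (vertical axis, bars from 0, knockdown minus its own control) of the 15 kallikrein genes in their order along chromosome 19, not to distance, with dashed lines at 2-fold. With CTNNB1 siRNA KLK6 to KLK8 are below 0 and KLK10 and KLK11 are above 1, and KLK7 is at -1.46 with MYC siRNA and at 0.64 with MYU siRNA.

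Of the 20 MMP genes, 4 were at least 1.5-fold higher with CTNNB1 siRNA and 0 lower, beside 6.44% and 9.80% of all genes. The 4 were the membrane-type MMP14 and MMP15 and the secreted MMP1 and MMP28. MMP14, the membrane collagenase MT1-MMP that TIMP2 binds, was higher by 1.11 (2.16-fold) with CTNNB1 siRNA, by 0.59 (1.504-fold) with MYC siRNA, and had 0.39 with MYU siRNA. MMP15, another membrane-type MMP, was higher by 0.96 (1.94-fold) with CTNNB1 siRNA, the value just outside the 2-fold line, and had 0.10 and 0.09 in the MYC and MYU pairs. MMP28, also called epilysin and expressed in epithelia, was higher by 1.77 (3.40-fold) with CTNNB1 siRNA and lay at 0.03 with MYC and -0.01 with MYU siRNA. So MMP15 and MMP28 were 1.5-fold higher in the CTNNB1 pair and near 0 in the other pairs, which was not tested as a difference between knockdowns. MMP1, the interstitial collagenase, was higher by 0.80 (1.74-fold) with CTNNB1 siRNA and had 0.12 and 0.09. Its measured neighbours in the MMP cluster on chromosome 11, MMP8, MMP10, MMP12, MMP13, MMP20 and MMP27, lay between -0.05 and 0.05 in the CTNNB1 pair. Other membrane-type MMPs lay near 0 there, MMP16 at 0.02 and MMP17 at 0.14. MMP7 and MMP3 of the same cluster were not analysed here.

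The 16 MMP genes that did not reach 1.5-fold in any pair lay between -0.05 and 0.21 with CTNNB1 siRNA, between -0.06 and 0.14 with MYC siRNA and between -0.18 and 0.18 with MYU siRNA. MMP25 belongs to them through the mean of 3 probe sets, which stood at 0.11, -0.51 and 0.27 in the CTNNB1 pair. The gene overlaps MMP25-AS1 in the assembly. The 2 probe sets of MMP24, a membrane-type MMP, had 0.12 and 0.30 there, and those of ADAMTS7P1 had -0.21 and 0.07.

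None of the 23 ADAM genes reached 2-fold in any pair, and 3 reached 1.5-fold: ADAM9, ADAM17 and ADAM20P1. Over all genes 7.39% reached 2-fold and 18.8% reached 1.5-fold in any pair. With 23 genes these counts are close to those shares. ADAM17, the main sheddase of TNF and of several EGFR ligands, was lower by 1.70-fold (-0.77) with MYC siRNA, and had -0.21 with CTNNB1 and -0.28 with MYU siRNA. ADAM10, which cleaves Notch receptors and E-cadherin, was above 0 in each pair, with 0.25, 0.35 and 0.31. ADAM9, a membrane ADAM, was higher by 0.68 (1.601-fold) with CTNNB1 siRNA, while its difference was -0.50 with MYC and -0.17 with MYU siRNA. The pseudogene ADAM20P1 was higher by 0.73 with MYC and 0.87 (1.83-fold) with MYU siRNA, the largest value of any member in the MYU pair, and had 0.33 with CTNNB1 siRNA. Its coding relative ADAM20 lay at 0.12, 0.00 and 0.07. The other 20 ADAM genes stayed between -0.17 and 0.31, between -0.13 and 0.35 and between -0.18 and 0.43 with siRNA against CTNNB1, MYC and MYU.

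**Figure D4:**
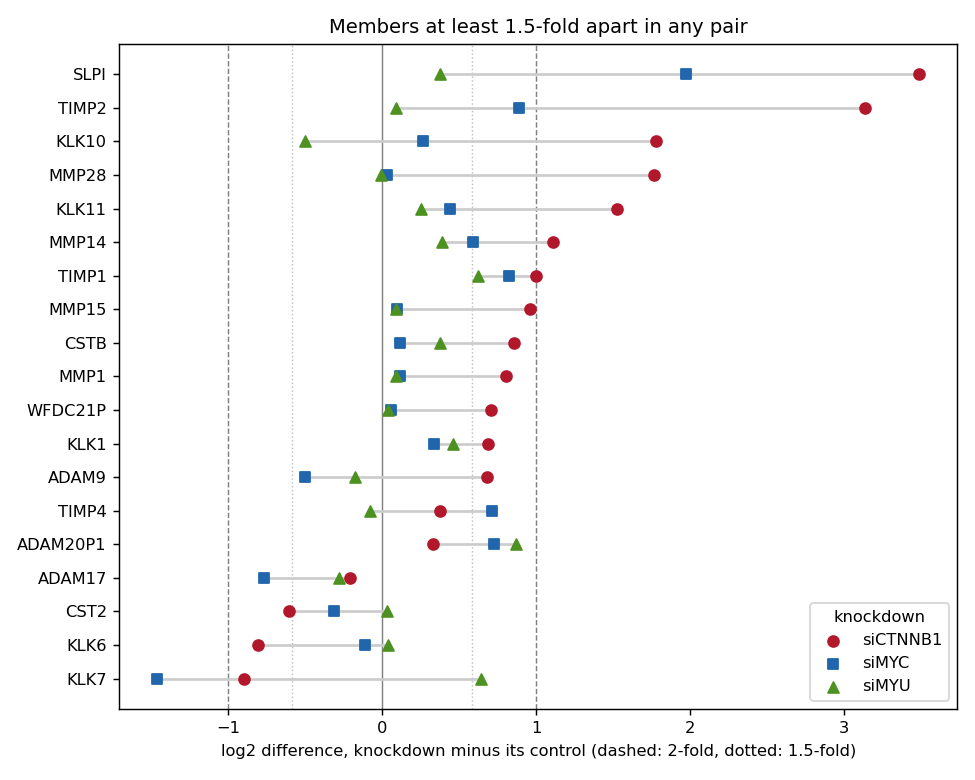
The 19 members at least 1.5-fold apart in any pair, with the log2 difference (horizontal axis, knockdown minus its own control) of each pair as a marker and a grey bar from the lowest to the highest. SLPI and TIMP2 have the widest bars, TIMP1 lies right of the dotted 1.5-fold line in all 3 pairs, and KLK7 has markers on both sides.

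Role was taken from the family symbol, without a check that each gene encodes an active protease or inhibitor. By role, 4 of 53 protein-coding protease genes and 3 of 30 protein-coding inhibitor genes were 2-fold higher with CTNNB1 siRNA, beside 2.80% of all genes. The medians were 0.05 in both. With MYC siRNA the inhibitor SLPI was 2-fold higher and the protease KLK7 was 2-fold lower. At 1.5-fold in the MYC pair, inhibitors were higher in 4 of 30 cases and lower in 0, and proteases were higher in 1 of 53 and lower in 2, beside 2.15% and 3.63% of all genes. The protease counts are near those shares. The inhibitors were SLPI, TIMP1, TIMP2 and TIMP4. The protease that was higher was MMP14, and those that were lower were KLK7 and ADAM17. Across the 3 pairs, 9 members were 1.5-fold higher in the CTNNB1 pair only by these calls: ADAM9, CSTB, KLK1, KLK10, KLK11, MMP1, MMP15, MMP28 and WFDC21P. They make up 9.57% of members, and 5.02% of all genes had the same pattern. SLPI, TIMP2 and MMP14 were 1.5-fold higher in the CTNNB1 and MYC pairs, whose controls may be the same cells. The share of all genes with this pattern was not counted. In all, 19 members (20.2%) reached 1.5-fold in any pair, beside 18.8% of all genes. The remaining 75 were within 1.5-fold in all 3 pairs. Those with a difference of less than 0.2 in size numbered 65 with CTNNB1, 68 with MYC and 69 with MYU siRNA. All genes were not counted at that limit. Without levels, a gene that was not transcribed and one that was transcribed equally cannot be told apart.

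Genes of the same system outside the symbol rule were read from lists, to be set beside the 2.80% of all genes that were 2-fold higher and the 4.14% that were 2-fold lower with CTNNB1 siRNA. Of 36 other serine protease genes measured, 0 were 2-fold apart in the MYC and MYU pairs, beside 0.857% and 0.155% of all genes. With CTNNB1 siRNA 2 were 2-fold higher and 0 lower. They were DPP4, a dipeptidyl peptidase of the intestinal brush border, with 1.45, 0.53 and 0.57, and ST14, the epithelial membrane protease matriptase, with 1.18, 0.39 and 0.43. Of 7 proprotein convertase genes and inhibitors, which activate many of these enzymes or restrain that step, PCSK5 was just past the 2-fold line with CTNNB1 siRNA (1.002) and had 0.64 with MYC and -0.13 with MYU siRNA. PCSK7 (0.85) and FURIN (0.64) were 1.5-fold higher with CTNNB1 siRNA.

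A list of 32 other extracellular metalloprotease genes also holds ADAMTS-like genes, which encode no protease. Of the 32, 1 was 2-fold higher with CTNNB1 siRNA and 0 lower. It was ADAMTSL5, which encodes an ADAMTS-like protein with no protease domain, with 1.03, 0.88 and -0.39. The membrane peptidase gene MME had -0.90 with CTNNB1 siRNA, and ECE1, the endothelin-converting enzyme gene, had -0.68 with MYC siRNA. A list of 31 other inhibitor genes also holds genes that encode no protease inhibitor. Of the 31, FSTL3 (1.35), a follistatin-like activin antagonist, and TFPI (1.13), the tissue factor pathway inhibitor, were 2-fold higher with CTNNB1 siRNA. At 1.5-fold 3 were higher, with LXN (0.97) as the third, and 2 were lower, beside 6.44% and 9.80% of all genes. In the same pair PEBP1, which encodes a phosphatidylethanolamine-binding protein, had -0.83, and SMOC2, a matrix protein gene, had -0.62. With MYC siRNA TFPI had 0.83 and FSTL3 0.40, and 0 of the 31 were 2-fold apart, beside 0.857% of all genes.

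Of 9 receptor genes for proteases and plasminogen, S100A10 was 2-fold higher with CTNNB1 siRNA (1.32) and with MYC siRNA (1.01), and had -0.28 with MYU siRNA. Its partner ANXA2, with which it forms a plasminogen-binding complex, had 0.74, -0.20 and -0.48. Of 18 genes for partners or substrates of membrane ADAMs 0 were 2-fold apart in any pair, where 7.39% of all genes were. With 18 genes this count is close to that share. The largest were the tetraspanin genes CD151, with 0.98, 0.70 and 0.36, and TSPAN3, with 0.97, 0.61 and 0.11. RHBDF1, which escorts ADAM17 to the surface, had 0.62, 0.05 and 0.00, and NOTCH1, a substrate of ADAM10, had -0.74, -0.59 and 0.28. The list medians in the CTNNB1 pair lay between -0.01 and 0.15.

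Markers of other cell types were read because several of these genes are, in tissue, also made by stroma and leukocytes. All 6 arrays are of the LS180 line, so the markers are given as its own transcripts, not as amounts of other cells. Of 4 fibroblast markers measured LUM was 2-fold higher with CTNNB1 siRNA (2.78), while DCN had 0.01, THY1 -0.04 and FN1 0.11. Of 6 leukocyte markers CD68, which also encodes a lysosomal protein of many cells, was 2-fold higher (2.65), while CD2 had 0.01, CD14 -0.03, CSF1R 0.06, TYROBP 0.23 and LYZ -0.23. In the MYC pair 0 of these 10 reached 1.5-fold, and in the MYU pair LYZ did (0.74), beside 5.79% and 1.88% of all genes. Of 13 epithelial markers 3 were 2-fold higher with CTNNB1 siRNA, and KRT20, a marker of differentiated colonocytes, had 4.39, 1.16 and -0.73. KRT19 (2.09) and VIL1 (1.06) were the others, whereas CDX2 had -0.42 and GRHL2 -0.20. In that pair 11 of the 13 were above 0, 7 were 1.5-fold higher and 0 lower, and the median was 0.62. Over all genes 2.80% were 2-fold higher there and 6.44% were 1.5-fold higher. With MYC siRNA 7 of the 13 were below 0, among them CDX1 (-0.40) and CLDN7 (-0.37), and the median was -0.05. Whether TIMP1, TIMP2, SLPI and MMP14 differed together with these markers was not tested, and summed marker levels are not available in centred values.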

How the data were processed

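Total RNA of LS180 cells for 6 samples was extracted with TRIsure, labelled with biotin and hybridised to Affymetrix arrays, per the labels' protocols. The deposited log2 expression values were centred by the authors within each pair, as read from the sums of both arrays, which are 0 within 1e-06; the log base is assumed to be 2. How background was corrected and arrays were normalized is not given in the sources used here.

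Of 44629 probe sets, 15835 have 1 gene symbol in the platform annotation, 0 have several and 28794 are unlisted and not named here. All 15835 identifiers matched GRCh38.p14, which gave names, gene types and gene order. A gene's probe sets were averaged. No filter on low values was possible, and all 94 members were counted. Differences are knockdown minus control, called at 2-fold, with 1.5-fold as an alternative. No test was possible with 1 array a group. The members and lists were chosen with earlier results of these data known. Named were members at least 1.5-fold apart, a set of well-known members, those with several probe sets, those next to the 2-fold line, and list genes by size. The yardstick list of olfactory and taste receptors matched 1 gene, OR4C45 (0.03, 0.04 and 0.01), and was not used. The calculations were tested on simulated data. Promoters came from RefSeq (GRCh38.p14). Python 3.11.15, numpy 2.4.6, pandas 2.3.3 and matplotlib 3.10.9 were used.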

Additional observations from a re-analysis of the deposited data

Results flagged for a closer look

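KLK7 was at least 1.5-fold apart in opposite directions in different pairs. Its log2 difference was -0.90 with CTNNB1 siRNA and -1.46 with MYC siRNA, and 0.64 with MYU siRNA. Each value comes from 1 probe set and 1 array on either side, and the difference between the knockdowns was not tested.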

How the results depend on the processing

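Each array was centred on its median, or the probe set nearest to or farthest from 0 was taken for genes with several. CSTPP1 and ADAMTS9-AS2 were left out, or only protein-coding genes were kept. Each 2-fold count stayed within 1.5 times of the reported one and each median of members within 1 standard deviation. These limits could hardly be exceeded, so they say little about robustness. The reported medians were 0.05, 0.02 and 0.03, beside standard deviations over members of 0.62, 0.34 and 0.19. Only 4 members have several probe sets, and none of these probe sets reached 1.5-fold. Apart from the 7 members higher with CTNNB1 siRNA, the 2-fold counts were 0 or 1. Under array centring TIMP1 was 0.99 in the CTNNB1 pair, below the 2-fold line, so 6 members in place of 7 were higher there. At 1.5-fold, members higher and lower numbered 13 and 3 with CTNNB1 siRNA, 6 and 2 with MYC siRNA and 3 and 0 with MYU siRNA. No paired analysis was possible because each pair has 1 array a group and its difference is the only value left. Leaving out arrays in turn was not possible for the same reason. The number of arrays limits the precision, and signal over background is not known, since levels are gone.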
